A study of Mus musculus with 21 samples.

Results

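The interleukin-1 (IL-1) family and its receptors were represented by 8 genes, chosen by name from the 23713 genes of the deposited count table: the ligands Il1a, Il1b, Il18 and Il33, the receptor antagonist Il1rn, the signalling receptor Il1r1, its partner chain Il1rap and the decoy receptor Il1r2. All 8 were found. RNA had been sequenced in bulk from the epidermal cells of mouse tail skin in 3 models of basal cell carcinoma (BCC), a Hedgehog-driven skin tumour, and in tumour-free control mice (Con) of each model. There were 3 Con and 4 BCC libraries for each model, 21 in all.

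The SmoM2 mice carry an activated form of the Hedgehog receptor protein Smoothened, and were sampled 29 days after tumour induction. The Gnas-eKO mice are named for a knockout of Gnas, which encodes the stimulatory G protein subunit that raises cAMP, and were sampled at 42 days. The PKI mice are named for an inhibitor of protein kinase A and were sampled at 57 days. The labels give neither the promoter or Cre line of any model, nor the genotype, strain, sex or age of the mice, nor whether the Con mice received the inducing agent. Each model formed its own batch (A, B or C), so model, day and batch cannot be told apart, and BCC was compared with Con inside each model. Animal names in the table headers start with the same letters for SmoM2 Con as for all Gnas-eKO mice, and with other letters for SmoM2 BCC. No source used here says what the letters stand for, so how closely the SmoM2 Con mice match the SmoM2 BCC mice is not given. The labels do not say outright that each library came from a separate mouse, although the headers carry a separate animal name for each, so p-values measure the spread between these libraries.

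Libraries held 16645858 to 22251132 counts. The 6 keratinocyte genes, Krt5, Krt14, Krt1, Krt10, Trp63 and Cdh1, summed to at least 23882 CPM (counts of a gene scaled to a fixed library total) in every library. Ptch1, a Hedgehog target, was at most 42.9 CPM in Con and at least 209 CPM in every BCC library. Within Gnas-eKO, the level of Gnas was 174 ± 3.00 CPM in the 3 Con libraries and 80.3 ± 28.1 CPM in the 4 BCC libraries (means ± SD). One library stood apart. On the first principal component of log2 CPM, Gnas-eKO BCC replicate 2 lay at −20.4, between the Con libraries at −57.2 to −40.4 and the other 11 BCC libraries at 32.4 to 59.4. Its Ptch1 level was 270 CPM and its Gnas level 89.5 CPM. The members' Gnas-eKO estimates are therefore given with and without it.

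IL-1 alpha and IL-1 beta are agonists that bind IL-1R1, which then recruits IL-1RAP and, through MyD88 and IRAK kinases, activates NF-kB. The antagonist encoded by Il1rn occupies IL-1R1 without recruiting the partner chain, and IL-1R2 binds ligand without signalling. IL-18 and IL-33 are relatives with receptors of their own. Keratinocytes hold stores of IL-1 alpha, IL-1RA, IL-18 and IL-33, and IL-1 alpha and IL-33 act as alarm signals when such cells are damaged, while IL-1 beta is made mostly by activated myeloid cells and is cut to its active form by caspase-1.

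Il1a, Il1b and Il1rn were the members called higher in PKI BCC, so the 250 bases upstream of their transcription starts are shown, from RefSeq (GRCm38.p6), with capitals marking the letters of the motifs searched. All 8 members matched the promoter table, with 12 start sites between them. For Il1rn the first of its 3 start sites is shown.

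Il1a promoter (chr2:129309973-129310222, minus strand): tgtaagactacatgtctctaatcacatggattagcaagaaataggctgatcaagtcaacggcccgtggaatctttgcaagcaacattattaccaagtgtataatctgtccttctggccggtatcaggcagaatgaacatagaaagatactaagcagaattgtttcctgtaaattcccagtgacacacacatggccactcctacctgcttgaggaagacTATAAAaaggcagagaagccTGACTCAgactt
Il1b promoter (chr2:129371140-129371389, minus strand): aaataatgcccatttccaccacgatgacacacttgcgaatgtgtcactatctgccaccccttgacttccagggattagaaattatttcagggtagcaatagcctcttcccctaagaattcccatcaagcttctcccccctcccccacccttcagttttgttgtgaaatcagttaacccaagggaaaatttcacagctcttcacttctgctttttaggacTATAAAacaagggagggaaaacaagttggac
Il1rn promoter (chr2:24336610-24336859, plus strand): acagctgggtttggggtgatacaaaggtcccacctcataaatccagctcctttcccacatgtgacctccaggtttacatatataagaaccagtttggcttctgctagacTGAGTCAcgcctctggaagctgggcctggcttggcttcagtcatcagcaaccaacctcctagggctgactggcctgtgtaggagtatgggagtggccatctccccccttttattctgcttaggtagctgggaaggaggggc

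The motifs were searched on both strands: TGANTCA for AP-1, TGACGTCA for the cAMP response element, GACCACCCA for GLI, TATAAA for the TATA box, and the NF-kB motif by its name. Counted back from the base before the start, Il1a had the AP-1 letters at −12 to −6 and the TATA letters at −32 to −27. Il1b had the TATA letters at −31 to −26 and no letters of the other motifs. Il1rn had the AP-1 letters at −141 to −135. Of 32817 RefSeq promoter windows of this length, 6.75% held the AP-1 letters, 12.4% the TATA letters, 7.25% the NF-kB motif, 1.55% the cAMP response element and 0.225% the GLI letters. None of the 12 windows held the GLI or cAMP response element letters. These matches describe the sequence only.

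In control epidermis the members spanned a wide range of levels, compared here as CPM per kilobase of exon because the genes differ in length. Over the 9 Con libraries the medians were 28.3 for Il33, 14.3 for the decoy receptor Il1r2, 8.39 for Il1rn, 5.73 for Il1r1, 4.96 for Il18 and 4.28 for Il1rap. The agonists were lowest, at 0.831 for Il1a and 0.0293 for Il1b. The Con ranges of Il1a (0.256 to 1.59) and Il1b (0 to 0.134) overlapped neither each other nor those of the other 6 members. Those of Il1r1 (4.79 to 6.65), Il18 (2.87 to 11.0) and Il1rap (3.00 to 4.84) overlapped each other. Antagonist and decoy RNA thus exceeded agonist RNA in every Con library.

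**Figure D1:**
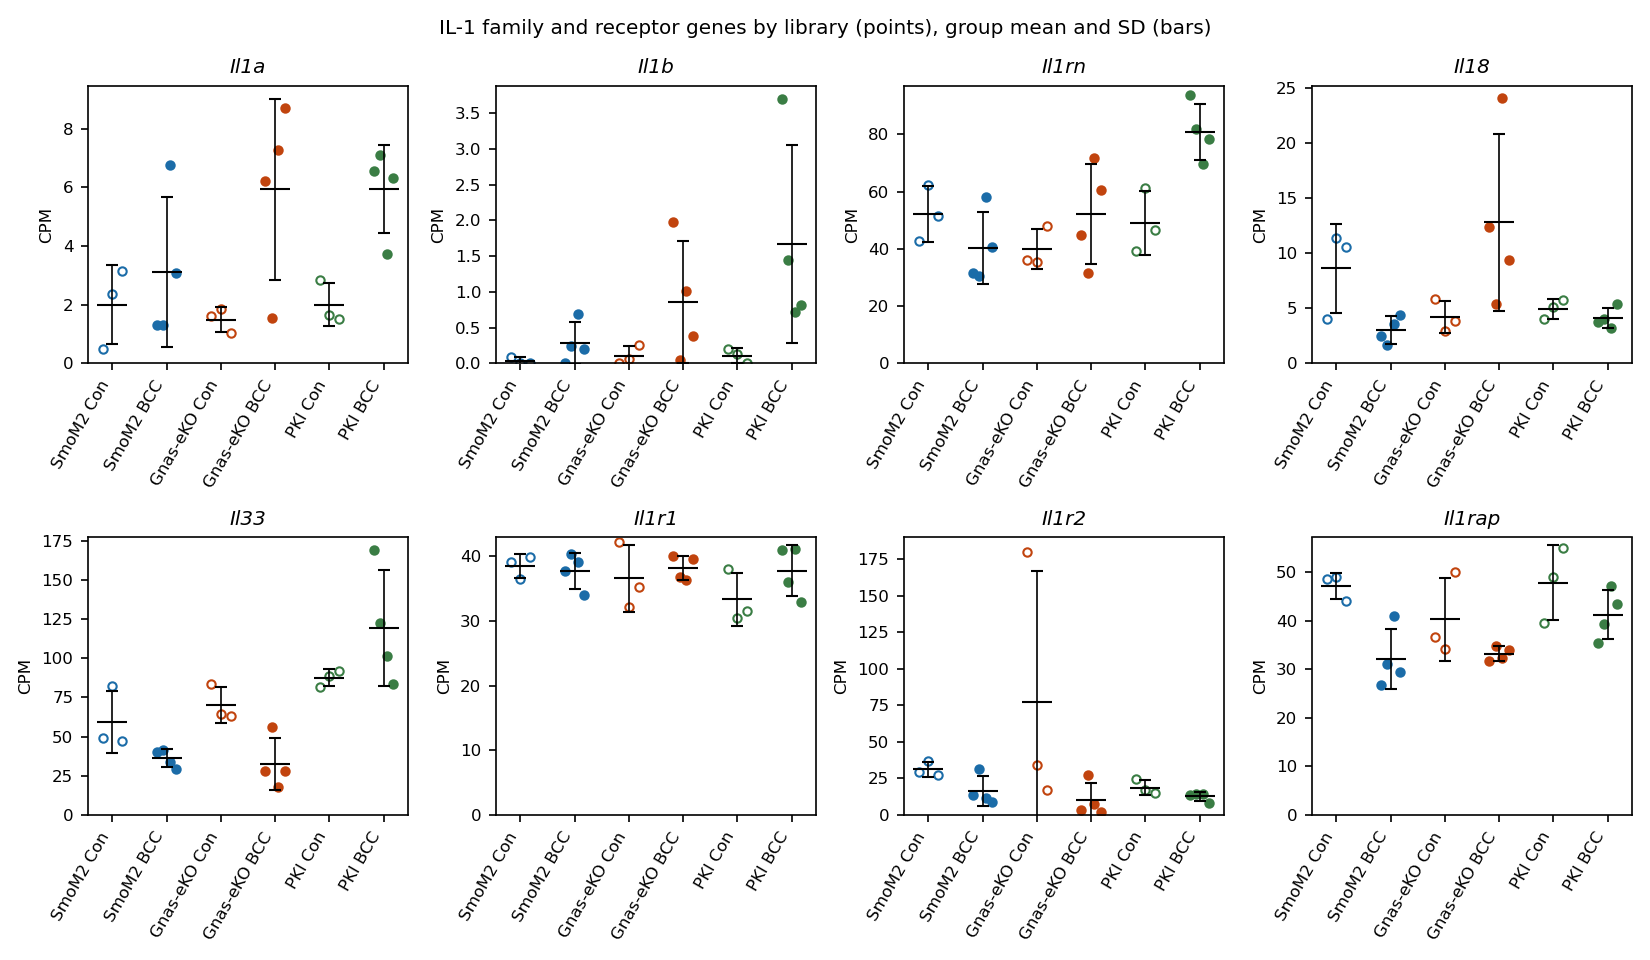
CPM of the 8 genes (y axes, each from 0) in each library of the 6 groups (x axis), with open points for Con, filled points for BCC, and bars for the group mean and SD (n = 3 Con and 4 BCC per model). Il1rn has its highest group mean in PKI BCC, at 69.6 to 93.6 CPM, a range that takes in 1 Gnas-eKO BCC library at 71.6 CPM, and Il1r1 stays between 30.5 and 42.3 CPM in all 21 libraries.

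BCC against Con was tested in each model with edgeR's quasi-likelihood test, with Benjamini-Hochberg adjustment over all genes tested and a call at an adjusted p under 0.05. PKI had 3 members called higher of 8 tested (Il1a, Il1b and Il1rn) and none lower. SmoM2 had 3 called lower of 7 tested (Il18, Il33 and Il1rap) and none higher. Gnas-eKO had 0 of 7 called by edgeR, with 4 members at an unadjusted p under 0.05 (Il1a, Il18, Il33 and Il1r2), and DESeq2's Wald test called 3 of them (9.35% of all genes). Of all genes tested, 34.5% were called in PKI (18.7% higher), 29.7% in SmoM2 (13.5% lower) and 1.63% in Gnas-eKO. The members' counts in PKI and SmoM2 are thus not far from the shares called in either direction. They lie above the shares for the direction called, but so few genes do not make this a result about the members. In PKI, Il1b reached the level of the low-count filter (0.509 CPM in at least 3 libraries) through the BCC libraries alone and so had to differ, and without it 2 of 7 members were called. Without Gnas-eKO BCC replicate 2 the share in Gnas-eKO was 11.8%, and 4 members were called, 2 in each direction. The median log2 fold change over the 7 members other than Il1b was 0.19 in PKI, −0.54 in SmoM2 and 0.07 in Gnas-eKO, beside medians over all genes of −0.0012, 0.00054 and 0.02. These are bulk samples, in which fewer cells of a type and less RNA per cell cannot be told apart.

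**Figure D2:**
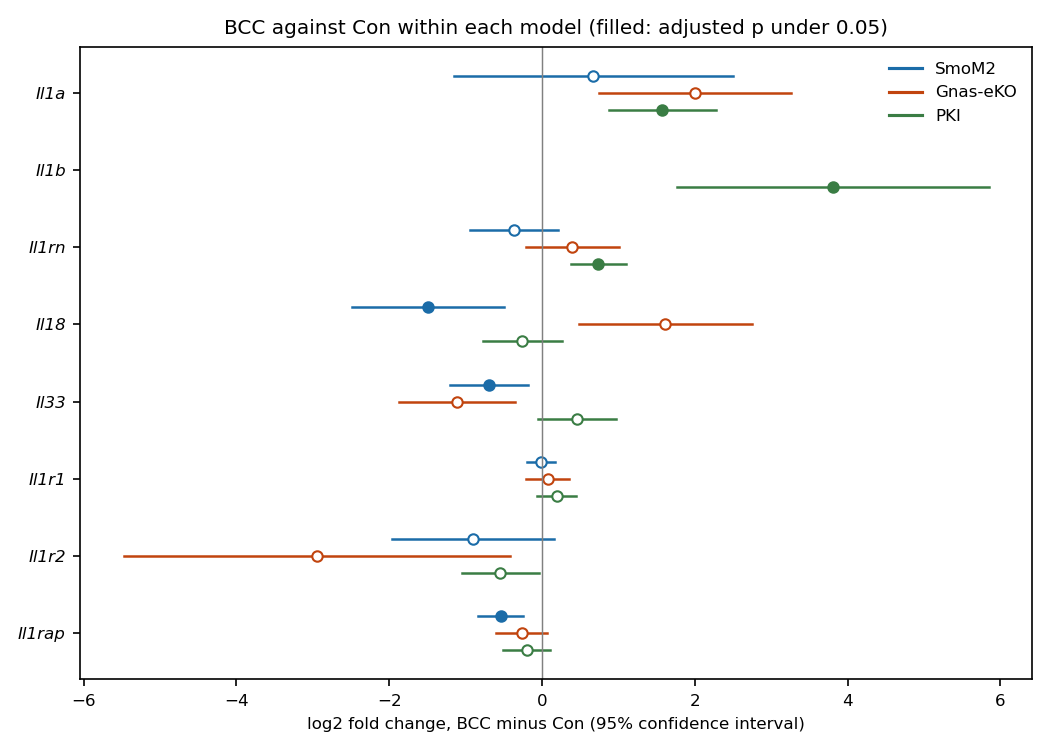
Log2 fold change of BCC against Con (x axis) with its 95% confidence interval (line) for each gene (y axis) in the 3 models (colours), with filled points where the edgeR adjusted p is under 0.05. Only PKI has filled points to the right of 0 and only SmoM2 to the left, and Il1b was tested in PKI alone.

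Il1a (ENSMUSG00000027399.1, GRCm38 chromosome 2, 129299610 to 129309972, minus strand) encodes IL-1 alpha. In PKI it was 2.84, 1.64 and 1.50 CPM in the 3 Con libraries and 6.57, 7.12, 3.74 and 6.30 CPM in the 4 BCC libraries. All BCC libraries lay above all Con libraries. It rose 2.97-fold, by 1.57 on the log2 scale (SE 0.31, adjusted p 0.00453 by edgeR), and passed in all 7 fits that each left out 1 library. In a joint fit of all 21 libraries, which shares the spread of Gnas-eKO and SmoM2, it did not pass (1.56, adjusted p 0.0691).

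In Gnas-eKO, Il1a was 1.62, 1.84 and 1.02 CPM in Con and 6.23, 1.55, 7.27 and 8.70 CPM in BCC. Replicate 2, the library that stood apart, lay within the Con range, and the other 3 BCC libraries lay above it. The estimate of 2.00 on the log2 scale (SE 0.55, adjusted p 0.104 by edgeR) did not pass. Without replicate 2 it was 2.32 (SE 0.30, edgeR adjusted p 0.00358). In SmoM2, Il1a was 0.505, 2.35 and 3.14 CPM in Con and 1.31, 1.30, 6.76 and 3.07 CPM in BCC, with overlapping groups and an estimate of 0.67 (95% confidence interval −1.16 to 2.49, edgeR adjusted p 0.573). Its sign turned (−0.045) in 1 fit that left out a library. The annotation places Gm14023 on the other strand over Il1a. Whether the counting used the strand is not given in the sources used here, so the counts of overlapping genes are uncertain to that extent.

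Il1b (ENSMUSG00000027398.13, chromosome 2, 129364570 to 129371139, minus strand) encodes IL-1 beta and was the scarcest member. In PKI it was 0.203, 0.126 and 0 CPM in Con and 3.69, 1.44, 0.712 and 0.822 CPM in BCC. Every BCC library lay above every Con library, and the first BCC library was over 2 CPM above the rest. Its log2 change was 3.81 (SE 0.90, adjusted p 0.0112 by edgeR), and 3.05 to 4.62 in the fits that each left out 1 library. Since Il1b was tested in PKI because it was high in BCC, that call is a description. The values rested on 131 counts in BCC against 6 in Con, a ratio of 14.3 with a counting interval of 6.41 to 39.8 (exact, 95%, counting error only).

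Il1b fell under the low-count filter in the other models and was not tested there. In SmoM2 it was 0.0918, 0 and 0 CPM in Con and 0, 0.241, 0.694 and 0.201 CPM in BCC. Those are 2 counts against 24, a ratio of 8.21 with a counting interval of 2.04 to 71.7, and the groups overlapped at 0. In Gnas-eKO it was 0, 0.0558 and 0.255 CPM in Con and 1.98, 0.0536, 1.02 and 0.387 CPM in BCC, with 6 counts against 71 and a ratio of 8.49 (3.72 to 23.9). Replicate 2 was again within the Con range and the other 3 BCC libraries above it. Without the filter, edgeR's adjusted p was 0.155 in SmoM2 and 0.261 in Gnas-eKO. The antisense gene Il1bos overlaps Il1b on the other strand.

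Il1rn (ENSMUSG00000026981.15, chromosome 2, 24336853 to 24351494, plus strand) encodes the IL-1 receptor antagonist and overlaps no other annotated gene. In PKI it was 39.2, 61.2 and 46.5 CPM in Con and 93.6, 81.8, 69.6 and 78.4 CPM in BCC. The groups did not overlap. It rose by 1.67-fold (log2 fold change 0.74, SE 0.16, edgeR adjusted p 0.00755), and passed in all 7 alternatives that kept every library and all 7 fits that left one out. In SmoM2 the 3 Con libraries had 42.9, 62.5 and 51.6 CPM and the 4 BCC libraries 31.7, 30.5, 58.0 and 40.7 CPM, with a log2 change of −0.36 (adjusted p 0.319 by edgeR). Without SmoM2 BCC replicate 3, the highest of the 4, it was −0.59 (adjusted p 0.0300). In Gnas-eKO the values were 36.2, 35.6 and 48.2 CPM in Con and 44.9, 31.7, 71.6 and 60.7 CPM in BCC, with a log2 change of 0.40 (adjusted p 0.455 by edgeR). Without BCC replicate 2 it was 0.58 (adjusted p 0.110). The BCC effect was larger in PKI than in SmoM2 by 1.10 on the log2 scale (SE 0.31, edgeR adjusted p 0.0211), a difference that passed in 11 of 14 fits that each left out 1 library. It did not pass without SmoM2 Con replicate 2 (0.95, adjusted p 0.0629), PKI Con replicate 1 (adjusted p 0.0554) or PKI Con replicate 3 (adjusted p 0.0524). Against Gnas-eKO the difference was 0.34 (95% confidence interval −0.37 to 1.06).

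In PKI BCC the RNA of IL-1 alpha and of the antagonist thus rose, and every library had more Il1b RNA than the Con libraries. The fitted changes of both agonists were larger than that of the antagonist, without a test of that difference. The ratio of Il1rn to Il1a plus Il1b, in CPM per kilobase, was 4.59, 12.3 and 11.0 in the PKI Con libraries and 3.21, 3.39, 5.55 and 3.91 in PKI BCC. The ranges overlapped. In SmoM2 it averaged 13.6 ± 10.5 (SD, n = 3) in Con and 5.71 ± 2.62 (SD, n = 4) in BCC. In Gnas-eKO it averaged 9.33 ± 3.55 in Con and 3.60 ± 2.33 in BCC, where replicate 2, at 7.03, lay within the Con range and the others lay at 1.94 to 3.07. In all 21 libraries the antagonist stayed above the agonists, with a lowest ratio of 1.94. The ratios were not tested.

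**Figure D3:**
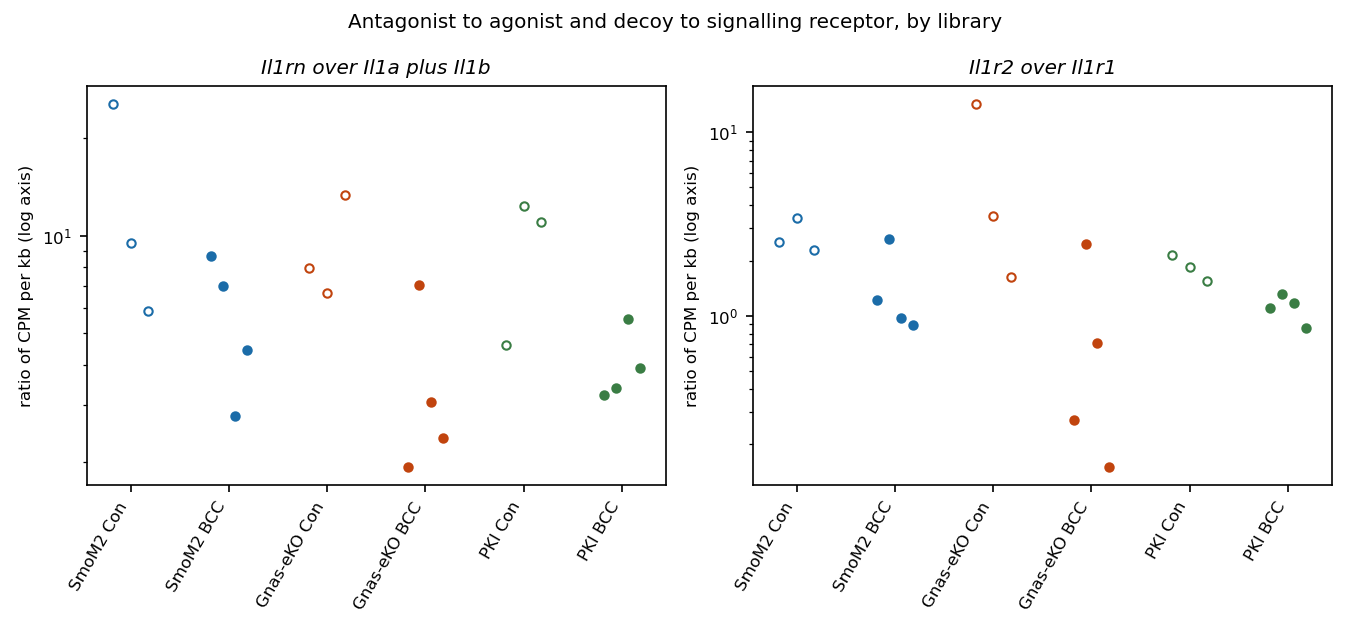
Ratio of Il1rn to the sum of Il1a and Il1b (left) and of Il1r2 to Il1r1 (right), each from CPM per kilobase of exon on a log axis, by library and group, with open points for Con and filled points for BCC. The antagonist ratio falls to 1.94 and the decoy ratio to 0.151 in single Gnas-eKO BCC libraries, and Gnas-eKO Con replicate 1 has the highest decoy ratio, 14.2.

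Il18 (ENSMUSG00000039217.13, chromosome 9, 50554827 to 50581840, plus strand) encodes IL-18, which is held in keratinocytes as a precursor and prompts interferon gamma production in lymphocytes. It fell in SmoM2, where it was 3.99, 11.4 and 10.6 CPM in Con and 2.44, 1.64, 3.61 and 4.43 CPM in BCC. One Con library lay within the BCC range. The fall was −1.49 on the log2 scale (SE 0.43, adjusted p 0.0326 by edgeR), and it passed in 2 of 7 fits that each left out 1 library. The adjusted p was 0.0577 to 0.108 without Con replicate 2 or 3 or without BCC replicate 1, 2 or 3. In Gnas-eKO it was 5.82, 2.96 and 3.83 CPM in Con and 12.4, 5.36, 24.1 and 9.37 CPM in BCC, where replicate 2 was the lowest. This difference, 1.61 on the log2 scale (SE 0.50), did not pass (adjusted p 0.128 by edgeR). Without replicate 2 it was 1.87 (SE 0.40, adjusted p 0.0236). In PKI the groups overlapped, at 4.00, 5.11 and 5.76 CPM in Con and 3.75, 4.02, 3.25 and 5.43 CPM in BCC (−0.26, edgeR adjusted p 0.417).

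The effects on Il18 in SmoM2 and Gnas-eKO had opposite signs. Their difference was 3.11 on the log2 scale (SE 0.71, adjusted p 0.126 by edgeR), in a comparison where 0.175% of genes were called and the test did not call Il18. Without Gnas-eKO BCC replicate 2 it was 3.35 (adjusted p 0.0409), and DESeq2's Wald test gave an adjusted p of 0.00156. Bco2 and Tex12 overlap Il18 on the other strand.

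Il33 (ENSMUSG00000024810.16, chromosome 19, 29925114 to 29960718, plus strand) encodes IL-33, a nuclear alarm signal of barrier epithelia, and overlaps no other gene. In SmoM2 it was 48.8, 82.2 and 47.1 CPM in Con and 39.9, 41.6, 33.8 and 29.2 CPM in BCC. The groups did not overlap, and the log2 change of −0.70 (SE 0.22, adjusted p 0.0468 by edgeR) passed in 2 of 7 fits that each left out 1 library. Without Con replicate 2, the highest, it was −0.39 (adjusted p 0.0839), and without any 1 of the BCC libraries the adjusted p was 0.0620 to 0.108. In Gnas-eKO it was 83.6, 64.2 and 63.3 CPM in Con and 27.9, 56.0, 17.8 and 27.7 CPM in BCC. These groups did not overlap either, and replicate 2 was the BCC library nearest to Con. Their log2 change was −1.11 (SE 0.33), which did not pass (adjusted p 0.123 by edgeR). Without replicate 2 it was −1.51 (SE 0.21, adjusted p 0.00467).

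Il33 took the other sign in PKI, with 81.7, 88.8 and 92.1 CPM in Con and 169, 123, 101 and 83.6 CPM in BCC. In BCC 3 libraries lay above Con and 1 within it, and the estimate of 0.46 (SE 0.22) did not pass (adjusted p 0.150 by edgeR). Without PKI BCC replicate 4 it was 0.60 (adjusted p 0.0367). The test of the difference between models called Il33. Its BCC effect was higher in PKI than in SmoM2 by 1.16 (SE 0.34, edgeR adjusted p 0.0265) and higher in PKI than in Gnas-eKO by 1.58 (SE 0.45, edgeR adjusted p 0.0453). The difference from SmoM2 passed in 11 of 14 fits that each left out 1 library, and not without SmoM2 Con replicate 2, PKI Con replicate 1 or PKI Con replicate 2 (adjusted p 0.0513 to 0.0714). It also missed the threshold in the joint fit of all libraries (edgeR adjusted p 0.0709). The difference from Gnas-eKO passed in 3 of 14, those without Gnas-eKO BCC replicate 2 or 3 or PKI BCC replicate 4, and the adjusted p of the others was 0.0509 to 0.111. It also missed the threshold without the low-count filter (edgeR adjusted p 0.0697) and with the replicate block (0.0630). In the main fits of PKI against SmoM2 and against Gnas-eKO 24.9% and 9.06% of all genes were called, and 12.6% and 4.49% with the higher effect in PKI. Of the 8 members, 2 were called between PKI and SmoM2 (Il1rn and Il33), 1 between PKI and Gnas-eKO (Il33) and 0 between Gnas-eKO and SmoM2. In that last comparison Il18 alone had an unadjusted p under 0.05, and it was the 1 member that DESeq2's Wald test called.

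Il1r1 (ENSMUSG00000026072.12, chromosome 1, 40225080 to 40317257, plus strand), the receptor that signals for both agonists, was the steadiest member. It lay between 30.5 and 42.3 CPM in all 21 libraries. Group means ran from 33.4 ± 4.07 CPM in PKI Con (SD, n = 3) to 38.5 ± 1.84 CPM in SmoM2 Con (SD, n = 3), with neighbouring groups overlapping throughout. Its log2 change was −0.01 (95% confidence interval −0.20 to 0.17) for SmoM2, 0.07 (−0.21 to 0.36) for Gnas-eKO (0.09 without BCC replicate 2) and 0.19 (−0.06 to 0.44) for PKI. The test called it in none of the models, and its 3 intervals are the narrowest of any member in each model. The sign in SmoM2 and in Gnas-eKO turned in some alternatives. Gm38070 overlaps Il1r1 on the same strand.

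Il1rap (ENSMUSG00000022514.14, chromosome 16, 26581704 to 26730117, plus strand) encodes the partner chain shared by the receptors for IL-1 and IL-33. In SmoM2 it was 48.6, 48.9 and 44.1 CPM in Con and 26.8, 31.1, 40.9 and 29.5 CPM in BCC. Every BCC library lay below every Con library. It fell by 0.54 on the log2 scale (SE 0.13, edgeR adjusted p 0.0128), to 0.686 of the Con level, and passed in 6 of 7 fits that each left out 1 library. The exception left out Con replicate 2 (−0.52, adjusted p 0.0516), and in that fit no member was called in SmoM2. With the replicate block Il1rap did not pass either (−0.53, edgeR adjusted p 0.0652). In Gnas-eKO the groups overlapped, with 36.7, 34.1 and 49.9 CPM in Con and 31.8 to 34.9 CPM in BCC (−0.27, edgeR adjusted p 0.355). Without BCC replicate 2 the value was −0.29 (adjusted p 0.314). In PKI they were 39.5, 49.0 and 55.0 CPM in Con and 35.3, 39.3, 47.1 and 43.4 CPM in BCC (−0.20, edgeR adjusted p 0.278). The difference between the PKI and SmoM2 effects was 0.34 (95% confidence interval −0.09 to 0.78, edgeR adjusted p 0.234). Gm20319 overlaps Il1rap on the other strand.

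Il1r2 (ENSMUSG00000026073.13, chromosome 1, 40074079 to 40125231, plus strand), the decoy receptor, had the widest spread. Gnas-eKO Con replicate 1 had 180 CPM, while the other 2 Con libraries of that model had 33.9 and 17.2 CPM. Gnas-eKO BCC had 3.23, 27.3, 7.75 and 1.79 CPM, and its replicate 2 alone lay within the Con range. The estimate was −2.95 on the log2 scale (SE 1.09, adjusted p 0.198 by edgeR). Without BCC replicate 2 it was −4.18 (SE 0.99, adjusted p 0.0367). In that model the estimate ranged from −4.18 to −1.35 over the fits that each left out 1 library, the sign staying below 0.

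In SmoM2, Il1r2 was 29.5, 37.0 and 27.2 CPM in Con and 13.8, 31.7, 11.3 and 9.11 CPM in BCC. Replicate 2 of the BCC group was the one within the Con range, and the estimate was −0.91 (SE 0.44, adjusted p 0.178 by edgeR). Without it the value was −1.43 (adjusted p 0.000711). In PKI it was 24.5, 16.9 and 14.6 CPM in Con and 13.5, 14.1, 14.5 and 8.44 CPM in BCC. These groups did not overlap, by a margin of under 1 CPM, and the estimate of −0.55 (SE 0.22, adjusted p 0.0896 by edgeR) did not pass. The estimate was below 0 in each model without passing in any. Gm16894 and Gm37347 overlap Il1r2.

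The ratio of decoy to signalling receptor followed Il1r2, since Il1r1 varied little. Il1r2 over Il1r1, in CPM per kilobase, was 2.14, 1.84 and 1.54 in PKI Con and 1.10, 1.31, 1.17 and 0.853 in PKI BCC, which did not overlap. SmoM2 Con averaged 2.72 ± 0.589 (SD, n = 3), and SmoM2 BCC 1.43 ± 0.809 (SD, n = 4). It was 14.2, 3.51 and 1.62 in Gnas-eKO Con and 0.269, 2.47, 0.710 and 0.151 in Gnas-eKO BCC. The decoy RNA per kilobase was above that of the signalling receptor in all 9 Con libraries, and below it in some BCC libraries of each model.

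Counting separation alone, 4 members had no overlap between BCC and Con in PKI (Il1a, Il1b and Il1rn higher, Il1r2 lower), 2 in SmoM2 (Il33 and Il1rap, both lower) and 1 in Gnas-eKO (Il33, lower). Among all genes tested this held for 43.2% in PKI (22.4% higher, 20.8% lower), 38.8% in SmoM2 (19.2% lower) and 19.7% in Gnas-eKO (9.69% lower). Ordered by group mean, the PKI BCC group stood first for Il1b, Il1rn and Il33, each with a range that overlapped that of at least 1 other group. For Il1a the highest means were 5.94 CPM in Gnas-eKO BCC and 5.93 CPM in PKI BCC, which do not differ beyond their spread.

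Of 17 other family gene names listed, 11 were in the table. The names Il36a, Il36b, Il36g and Il36rn were not, but their genes are there under the names Il1f6, Il1f8, Il1f9 and Il1f5. The other names not found were Il1rapl1 and Il1rapl2. In PKI 4 of 11 were called higher and 2 lower, and among the 4 were receptor chains for IL-18 and IL-33. Of these 6, Il18rap and Il1rl1 reached the filter's level in fewer than 3 Con libraries and Il1f10 in fewer than 3 BCC libraries, and of the 8 genes at that level in both groups 2 were called higher and 1 lower, a share near the 34.5% of all genes. The test with edgeR called 0 of 10 in SmoM2 (1 at an unadjusted p under 0.05, 0 by DESeq2) and 0 of 10 in Gnas-eKO (2 and 1). Il1rl1, the IL-33 receptor, was at 0 in all 3 PKI Con libraries and 0.567 to 3.03 CPM in PKI BCC. Its BCC mean of 1.96 CPM was at least 34.1 times the Con level (floor of 3 counts over the Con group). Il18rap, the second chain of the IL-18 receptor, was 0.159 ± 0.169 CPM in PKI Con (SD, n = 3) and 2.64 ± 0.787 CPM in PKI BCC (SD, n = 4), which is 3.93 higher on the log2 scale. The calls of these 2 genes are a description, since they were tested because they were high in BCC. The other genes called higher were Il18r1, its partner chain (0.981 and 7.70 CPM), and Il1f9, which encodes IL-36 gamma (24.8 and 40.4 CPM). Il1f10, a relative with antagonist-like activity, was 1.09 ± 0.577 CPM in Con and 0.124 ± 0.170 CPM in BCC (−3.03), a call that is likewise a description. The other gene called lower was Il1f5, the IL-36 receptor antagonist (126 and 79.1 CPM). Il18r1, Il1f9 and Il1f5 are named to complete the counts, after their values were seen. Neither lower call held when PKI Con replicate 2 or 3 was left out, and only 1 of them passed without BCC replicate 1, 2 or 3. Il1f10 passed in 5 of 7 fits that each left out 1 library. Without Gnas-eKO BCC replicate 2, 2 of 10 were called higher in that model.

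Of the 21 genes of IL-1 receptor signalling, 5 were called higher and 3 lower in SmoM2, 8 higher and 4 lower in PKI, beside 29.7% and 34.5% of all genes called in either direction in those models, and 0 in Gnas-eKO by edgeR (5 at an unadjusted p under 0.05, 4 by DESeq2). Without Gnas-eKO BCC replicate 2, 4 were called higher and 1 lower there. Leaving out 1 library gave 5 higher and 2 to 5 lower in SmoM2 (5 lower without Con replicate 1), and 5 to 8 higher and 2 to 3 lower in PKI (5 higher without Con replicate 1, and 2 lower without Con replicate 1 or 2 or BCC replicate 1 or 2). Irak3, an inhibitory member of the IRAK group, rose from 15.5 ± 0.994 to 40.4 ± 5.94 CPM in SmoM2 (log2 fold change 1.40, edgeR adjusted p 3.64e-05) and from 12.7 ± 1.28 to 34.3 ± 2.97 CPM in PKI (1.45, edgeR adjusted p 7.62e-05). Tnfaip3, which encodes the NF-kB inhibitor A20, rose by 1.22 in SmoM2 and 1.40 in PKI on the same scale (edgeR adjusted p 0.000266 and 0.00443). Nfkbiz rose by 1.24 in SmoM2 (edgeR adjusted p 0.00858), and Nfkb2 rose by 1.24 in PKI (edgeR adjusted p 0.00137). Tollip, another inhibitor, fell in both models (−0.30 in SmoM2 and −0.39 in PKI, edgeR adjusted p 0.0282 and 0.0101), and Nfkbia, the inhibitor of NF-kB, was called in no model. Both were named after their values were seen. Irak3, Tnfaip3, Nfkbiz and Nfkb2 are shared with other NF-kB pathways. The list's median was −0.06 for both SmoM2 and Gnas-eKO and 0.16 for PKI.

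Of 18 genes of inflammasomes and IL-1 processing, 16 were in the table. In PKI 5 of 13 tested were called higher and 0 lower, beside 18.7% of all genes called higher, and the joint fit of all libraries called 2 higher. Aim2, Nlrp3 and Prtn3 reached the filter's level there in fewer than 3 Con libraries, and of the 10 genes at that level in both groups 3 were called. Aim2, a DNA sensor that assembles an inflammasome, was 0 to 0.203 CPM in PKI Con and 2.98 to 5.21 CPM in PKI BCC (log2 fold change 5.33), and the sensor Nlrp3 stayed under 1 CPM (2.75). Both were tested because they were high in BCC, so their calls are a description. Casp4, an inflammatory caspase, went from 2.08 ± 0.379 to 5.15 ± 2.04 CPM (1.32, edgeR adjusted p 0.0149). Casp4 did not pass without PKI Con replicate 2 (adjusted p 0.0627) or in the joint fit (adjusted p 0.0689). In SmoM2 2 of 12 were called in each direction, a share near the 29.7% of all genes. Aim2, Gsdme and Prtn3 reached the filter's level there in fewer than 3 Con libraries, and of the other 9 genes 1 was called higher and 2 lower. Pycard, the adaptor ASC, fell from 153 ± 10.0 to 85.0 ± 3.53 CPM (−0.83, edgeR adjusted p 1.98e-05), and Nlrp10 fell by 1.16 (edgeR adjusted p 0.00309). Prtn3, a protease known from neutrophils, was 1.17 ± 0.237 CPM in SmoM2 BCC and at most 0.172 CPM in Con (3.96), which is a description for the same reason. In Gnas-eKO edgeR called 0 of 12 (2 at an unadjusted p under 0.05, 0 by DESeq2), and 2 higher without its BCC replicate 2.

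Of 20 genes that IL-1 is known to induce in keratinocytes, 17 were in the table, and many of them also respond to other inflammatory signals. In PKI 13 were tested and 4 filtered out. Of the 13, 9 reached the filter's level in fewer than 3 Con libraries and were tested because they were high in BCC, which leaves their calls, all higher, as a description. The 4 genes at that level in both groups were called higher as well, with a median log2 fold change of 2.35, beside 18.7% of all genes. In SmoM2 5 of the 8 genes at that level in both groups were called higher, with a median of 1.73, beside 2646 of all 16370 genes tested. Over all 9 tested there 6 were called, and 2 to 5 in the fits that each left out 1 library, 2 of them without Con replicate 2. In Gnas-eKO edgeR called 0 of 10 (7 at an unadjusted p under 0.05, 3 by DESeq2), with a median of 1.66 over the 8 at that level in both groups. Without BCC replicate 2, 7 of 10 were called higher, beside 11.8% of all genes called in either direction.

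S100a9 and S100a8, subunits of calprotectin, had the largest fitted changes among these genes. In PKI S100a9 was 0.600 to 4.91 CPM in Con and 457 to 1983 CPM in BCC (log2 fold change 8.88, edgeR adjusted p 0.00254), and S100a8 0.379 to 4.71 CPM and 438 to 1578 CPM (8.82), the latter as a description since it missed the filter's level in 1 Con library. In SmoM2 S100a8 was 4.38 to 42.3 CPM in Con and 197 to 432 CPM in BCC (3.82, edgeR adjusted p 0.0199). S100a8 did not pass without SmoM2 Con replicate 2 (adjusted p 0.0730) or with the replicate block (adjusted p 0.117). In the same model S100a9 changed by 3.68 (adjusted p 0.0386 by edgeR), which passed in 1 of 7 fits that each left out 1 library. Lcn2, which encodes lipocalin-2, had 2.43 in SmoM2 (edgeR adjusted p 0.0356, passing in 3 of 7 such fits). Cxcl3, a chemokine for neutrophils, was at 0 in PKI Con and 0.400 to 4.52 CPM in PKI BCC. Its BCC mean of 1.96 CPM was at least 34.2 times the Con level (floor of 3 counts over the Con group).

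**Figure D4:**
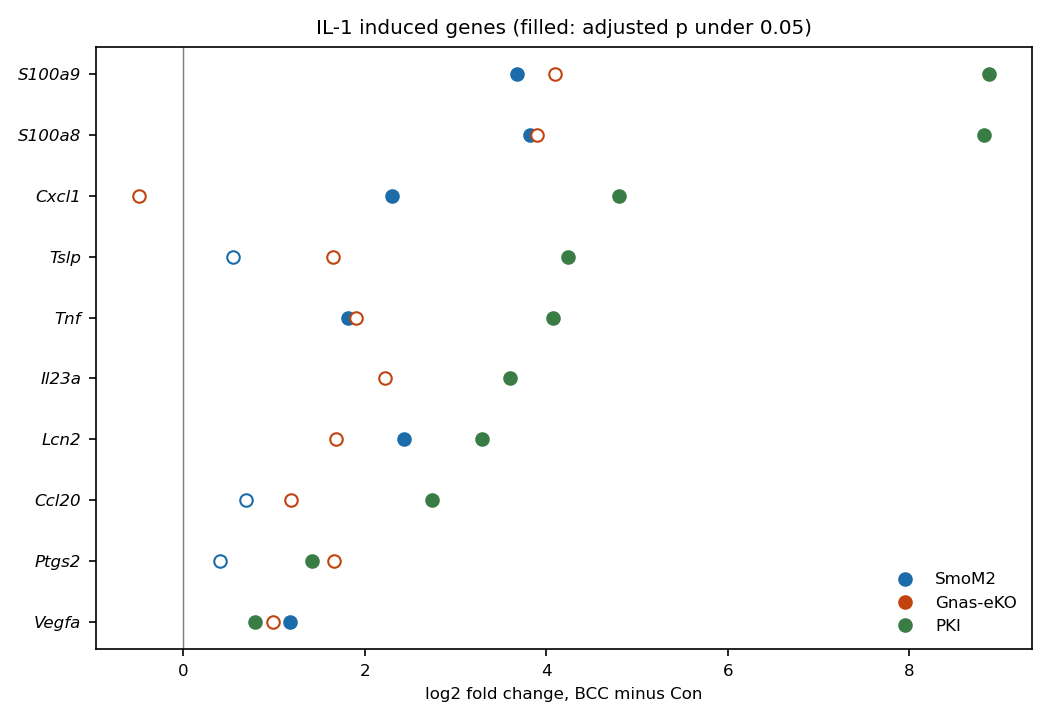
Log2 fold change of BCC against Con (x axis) for the tested genes that IL-1 induces in keratinocytes (y axis) in the 3 models (colours), with filled points where the edgeR adjusted p is under 0.05. Genes at or under the floor of 3 counts in PKI Con are left out. The PKI points shown are filled, S100a9 and S100a8 being farthest right at 8.88 and 8.82, but 9 of the 13 genes tested in PKI reached the filter's level in fewer than 3 Con libraries, so their filling is a description, and no Gnas-eKO point is filled.

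Markers of other cell types moved with several of these results. The 5 genes of all leukocytes summed to 7.98 to 21.1 CPM in PKI Con and 54.4 to 129 CPM in PKI BCC. All 5 were called higher there, beside 18.7% of all genes. In SmoM2 they were 12.8 to 15.1 CPM and 11.0 to 16.5 CPM, and in Gnas-eKO 17.8 to 18.2 CPM and 16.2 to 43.5 CPM, with 0 of 5 called by edgeR or DESeq2 in either (0 and 1 at an unadjusted p under 0.05). In PKI 6 of 7 macrophage and monocyte genes were called higher (summed 5.34 to 13.3 CPM in Con and 32.6 to 62.1 CPM in BCC), as were 6 of 6 tested Langerhans and dendritic cell genes (116 to 225 CPM and 424 to 765 CPM) and 5 of 6 tested T cell genes (6.18 to 13.0 CPM and 15.6 to 32.9 CPM). Part of these genes, among them 5 of the 7 macrophage genes, reached the filter's level in fewer than 3 Con libraries. The T cell count was 3 without PKI BCC replicate 2 or Con replicate 2 or 3, and 2 of the 3 T cell genes at the filter's level in both groups were called. In SmoM2 1 gene was called higher in each of these 3 lists, Cd68 among macrophage genes (1.32, edgeR adjusted p 0.00703), Epcam, which epithelial cells also express, among Langerhans genes (0.76, edgeR adjusted p 0.00144), and Trac among T cell genes (as a description, being too low in Con). In Gnas-eKO edgeR called 0 genes of the 3 lists (2, 1 and 2 at an unadjusted p under 0.05, and 0, 1 and 1 by DESeq2). The macrophage sums there were 12.6 to 14.2 CPM in Con and 14.7 to 31.7 CPM in BCC, and the Langerhans sums 202 to 269 CPM and 288 to 672 CPM. Within those Langerhans sums Epcam was 110 ± 16.4 CPM in Con and 259 ± 95.3 CPM in BCC (means ± SD). Cd207 was 7.03 ± 2.02 and 7.00 ± 2.99 CPM, H2-Aa 45.1 ± 10.7 and 59.7 ± 31.4 CPM, and Cd74 73.4 ± 15.0 and 99.2 ± 60.5 CPM. The library with the highest Il1b, PKI BCC replicate 1, also had the highest leukocyte, macrophage and Langerhans sums. The part of these cells in the PKI rises of Il1b, the receptor chains and the induced genes was not tested.

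Of 7 neutrophil genes, 3 were in the table. In PKI, Cxcr2 was called higher, while the other 2 were too low to be tested: Csf3r was at 0 in Con and 0.483 ± 0.363 CPM in BCC (SD, n = 4), and Camp 0.622 ± 0.864 CPM in Con and 0.0898 ± 0.180 CPM in BCC. The 4 melanocyte genes summed to 140 to 187 CPM in PKI Con and 68.8 to 109 CPM in PKI BCC. Of these 4, 3 were called lower, beside 2590 of all 16397 genes tested. Fibroblast genes summed to 15.8 to 43.5 CPM over the Con libraries of all models, and to 387 to 525 CPM in SmoM2 BCC, 94.2 to 579 CPM in Gnas-eKO BCC and 84.4 to 145 CPM in PKI BCC. The 579 CPM is that of Gnas-eKO BCC replicate 2, the library that stood apart, and is the highest of all 21. Most of that sum is Dcn, the gene of decorin, at 439 ± 70.5 CPM in SmoM2 BCC. Of the 6 fibroblast genes 2 were called higher in SmoM2, 3 in PKI and 1 in Gnas-eKO (5 without its BCC replicate 2, and 0 or 1 without any other library). The PKI count was 5 without Con replicate 1 and 2 to 3 otherwise, and that of SmoM2 2 to 3. Among all genes tested, 2646 of 16370 were called higher in SmoM2, 3063 of 16397 in PKI and 240 of 16409 in Gnas-eKO. In SmoM2 Col1a1 (0.36, adjusted p 0.575) and Col3a1 (−0.07, adjusted p 0.955) were not called by edgeR. The 6 keratinocyte genes summed to 48224 to 64734 CPM in SmoM2 Con and 32399 to 47442 CPM in SmoM2 BCC, which did not overlap, beside the falls of Il18, Il33 and Il1rap there. Within the list Krt5, Krt14 and Krt10 were called lower and Trp63 higher (0.48, edgeR adjusted p 0.00356), and Krt1 and Cdh1 were not called. Leaving out 1 library gave 1 or 2 lower calls, with 1 in the fit without Con replicate 2. In Gnas-eKO they were 49953 to 60842 CPM and 23882 to 43355 CPM, beside the Il33 levels below Con. In PKI they overlapped, at 44190 to 61079 CPM and 40874 to 68575 CPM, with Krt1 called higher and Krt5 lower, while in 5 of 7 fits with 1 library removed none of the 6 was called. The part of these shifts in the members' changes was not tested.

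**Figure D5:**
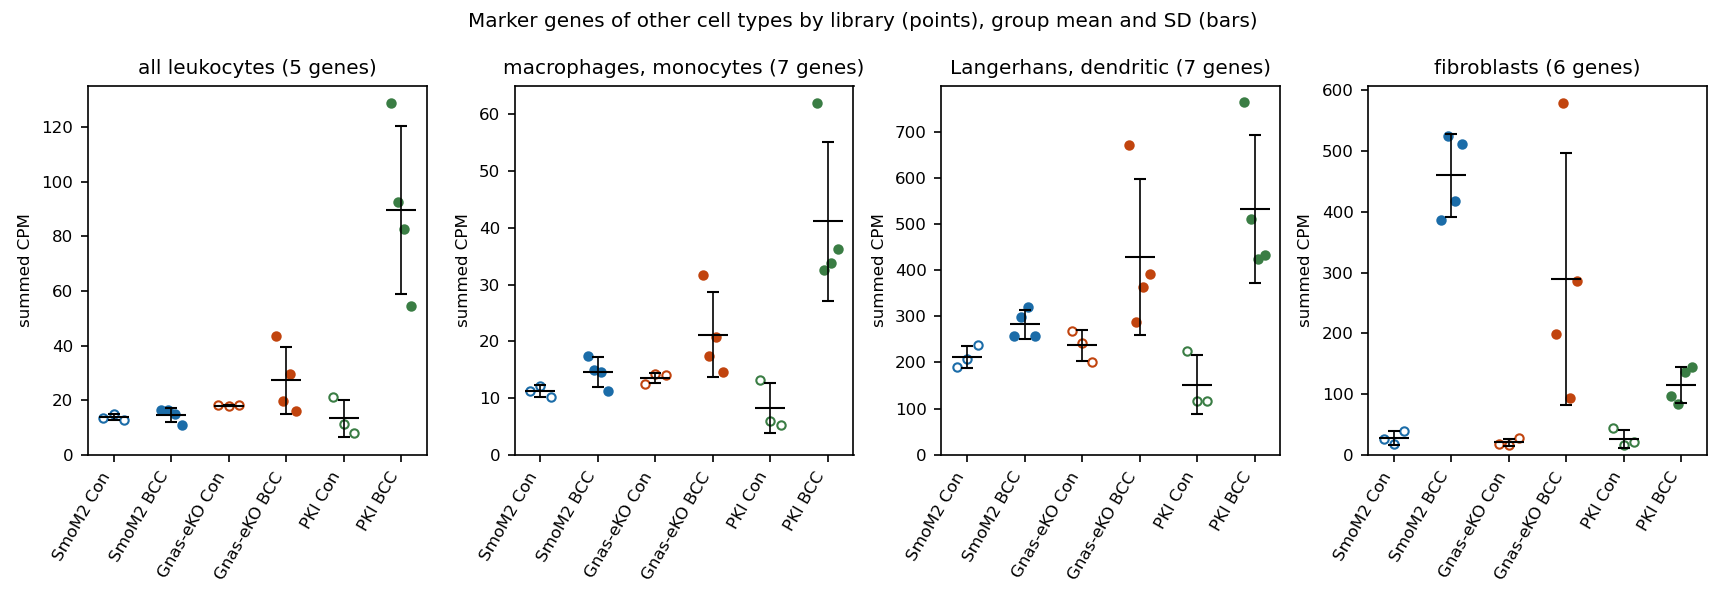
Summed CPM (y axes, each from 0) of marker genes of 4 other cell types by library in the 6 groups (x axis), with open points for Con, filled points for BCC, and bars for the group mean and SD (n = 3 Con and 4 BCC per model). Leukocyte and macrophage sums are highest in the PKI BCC libraries, and fibroblast sums in SmoM2 BCC and 1 Gnas-eKO BCC library.

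For each called member, the genes with the most similar profile were found as those with the smallest root mean square difference of mean-centred log2 CPM over the 21 libraries, among 14675 genes. Il1b, whose own root mean square deviation was 1.55, was nearest to Ctss (0.728), Srgn (0.749) and Itgb2 (0.803), which are known from myeloid and other leukocytes. For Ctss the log2 fold change was 3.27 in PKI, 1.17 in Gnas-eKO and 0.34 in SmoM2. Il1a (own deviation 1.07) was nearest to Adcy7 (0.493), Olfm2 (0.544) and Lce3c (0.567). Il18 (0.851) was nearest to Serpinb11 (0.466), to Ivl (0.483), which encodes involucrin of the cornified envelope, and to Dnase1l2 (0.511). For Ivl these fold changes, in the same order of models, were −0.21, 0.37 and −1.06.

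Il33 (own deviation 0.802) was nearest to Cotl1 (0.350), Nat8l (0.399) and Mlkl (0.404), and for Cotl1 these values were 0.29, −1.15 and −0.68. Il1rn (0.471) was nearest to Bdh1 (0.215), Kctd11 (0.238) and Plekhg1 (0.246). Il1rap (0.282) was nearest to Atp11b (0.148), Vps37c (0.171) and Cdc37l1 (0.175). All these values share the same libraries and are given as a description. Il1a and Il1b, both higher in PKI BCC, thus had different nearest genes, and none of the 18 genes was named for more than 1 member.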

How the data were processed

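RNA of 21 libraries was measured by stranded polyA sequencing. The authors deposited estimated counts per gene, of which 33.1% are not whole numbers (no tolerance), for 23713 genes with at least 10 counts over all libraries. They also deposited a normalized signal, a count times 1 factor per library plus 0.001, called TMM. The submitters' processing notes name bcl2fastq 2.20, cutadapt 1.18, STAR 2.7.0f, Partek and mm10. The annotation, counting rule and use of strand are not given in the sources used here. Deposited gene ends lie 1 base past those of GENCODE M21 and are given here as annotated.

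Estimated counts were rounded and tested with edgeR 4.0.16 (R 4.3.3) in the 7 libraries of each model: filterByExpr, TMM, robust glmQLFit and glmQLFTest, Benjamini-Hochberg over all genes tested. Differences between models were interaction contrasts over 14 libraries, in which an additive batch effect cancels. Standard errors are the absolute log2 fold change over the square root of F. CPM uses TMM-scaled sizes of all 21 libraries, at which 3 counts are at most 0.189 CPM, and CPM per kilobase uses merged GENCODE M21 exons. Within each group, every pair of libraries differed by more than counting noise (lowest chi-square over its degrees of freedom 8.97).

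The 8 members, the gene and marker lists and the tests were chosen with earlier results of these data known. Named by rule were all members, per list and model the 3 called genes with the largest change, and for each called member its 3 nearest genes (mean log2 CPM, with prior count 2, of at least 0). Alternatives were DESeq2 1.42.0 (size factors, or its Wald test), no low-count filter, the replicate number as a block, a joint fit of all libraries, limma 3.58.1 on log2 of the deposited signal plus 1 or 10, and leaving out each library. On simulated counts, log2 changes of 2 were recovered for 92.7% (SmoM2), 84.2% (Gnas-eKO) and 89.9% (PKI) of the changed genes, and changes of 1 for 69.4%, 38.8% and 66.0%. Few genes were changed (in SmoM2 96 by 2 and 98 by 1, of 16145), a smaller share than was called in the data of SmoM2 or PKI. Libraries were drawn independently, with none that stood apart, so these rates are not the power in these data.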

Additional observations from a re-analysis of the deposited data

Results flagged for a closer look

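The BCC effect on Il1rn differed between models by the interaction test, higher in PKI than in SmoM2 by 1.10 on the log2 scale (edgeR adjusted p 0.0211). The log2 fold change was 0.74 in PKI, where all 4 BCC libraries lay above all 3 Con libraries, and −0.36 in SmoM2, where the groups overlapped.

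The BCC effect on Il33 differed between PKI and SmoM2 by 1.16 (edgeR adjusted p 0.0265) and between PKI and Gnas-eKO by 1.58 (edgeR adjusted p 0.0453). Il33 was lower in all 4 BCC libraries than in all 3 Con libraries of both SmoM2 and Gnas-eKO, and above Con in 3 of 4 PKI BCC libraries. Both differences use the same PKI libraries.

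Il1r2 in PKI BCC replicate 4, at 8.44 CPM, lay far below the other 3 libraries of its group (13.5 to 14.5 CPM), with a gap of 0.849 of the group's range. Chance gives such a gap in about 1 of 20 groups, and 24 sets of 4 libraries were examined.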

How the results depend on the processing

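The counts of called members in PKI (3) stayed at 3 to 4 when 1 library was left out, while those in SmoM2 (3) ranged from 0 to 3 and those in Gnas-eKO (0) from 0 to 4. For the differences the ranges were 0 to 3 (PKI against SmoM2), 0 to 2 (PKI against Gnas-eKO) and 0 to 1 (Gnas-eKO against SmoM2). Over all genes, leaving out 1 library gave 3613 to 4627 calls in SmoM2, 0 to 1910 in Gnas-eKO, 4057 to 5466 in PKI, 3401 to 4429 for PKI against SmoM2, 673 to 2512 for PKI against Gnas-eKO and 14 to 79 for Gnas-eKO against SmoM2.

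Without the low-count filter, 1 member was called in SmoM2 and 0 for PKI against Gnas-eKO. DESeq2's Wald test called 3 members in Gnas-eKO, 2 for PKI against Gnas-eKO and 1 for Gnas-eKO against SmoM2, with 1535, 2389 and 212 genes. The joint fit called 4 members in Gnas-eKO, 1 for PKI against SmoM2 and 1 for Gnas-eKO against SmoM2, with 2644 genes in the first and 66 in the last. Limma with a pseudocount of 10 called 80 genes in Gnas-eKO. It gave Il1b in PKI a log2 fold change of 0.20 (adjusted p 0.0903), since a pseudocount above the gene's level shrinks its change. In SmoM2, Il33 also missed the threshold without the filter, in the joint fit and in both limma fits (adjusted p 0.0522 to 0.0999), and Il18 without the filter (adjusted p 0.0534). The cause of the other shifts was not tested.

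Same-numbered libraries deviated together by correlations of −0.11 to 0.24, and the same number was the best match for Gnas-eKO replicate 2 and PKI replicate 1. With so few libraries a group this cannot show whether the numbers pair the samples, and the labels do not say. With the replicate block, 135 genes were called in Gnas-eKO and 925 for PKI against Gnas-eKO, 1 member was called for PKI against SmoM2 and 0 for PKI against Gnas-eKO. In the block fit Il1rap in SmoM2 had an adjusted p of 0.0652 and the sign of Il1r1 in SmoM2 turned (0.034).

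Other signs turned only when 1 library was left out, for values that had not passed: Il1a in SmoM2 (−0.045 to 1.17), Il1r1 in SmoM2 (−0.053 to 0.036) and Gnas-eKO (−0.013 to 0.19), Il1b for PKI against SmoM2 (−1.70 to 1.90) and against Gnas-eKO (−0.90 to 1.66), and Il1rap for PKI against Gnas-eKO (−0.11 to 0.18). The fit with the low-count filter gave no finite difference of Il1b between Gnas-eKO and SmoM2, and the fit without the filter gave 0.12 (unadjusted p 0.995). Il1b rests on 2 to 131 counts a group, so its levels are limited by depth, and model, day and batch cannot be told apart.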
